A study of Mus musculus with 7 samples.

Results

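The genes described here are 40 genes of the lysosome, chosen by symbol from textbook membership and looked up in 2 deposited tables of mouse bone-marrow-derived macrophages (BMDMs). All 40 were found in both tables, among 48440 genes in the table of the lipopolysaccharide (LPS) course and 55352 genes in the table of the adeno-associated virus (AAV) experiment. They are 12 proteases (the cathepsins and legumain), 7 glycosidases, 4 genes of sphingolipid breakdown and its helper proteins counted together with progranulin, 7 membrane proteins, 6 genes of the vacuolar proton pump, 3 transcription factors and the autophagy receptor Sqstm1. All of the BMDMs were grown in medium with M-CSF at 20 ng per mL. In the first experiment, wild-type BMDMs were sequenced untreated (LPS 0 h) and after 2 h and 4 h in LPS at 100 ng per mL, LPS being a lipid of the bacterial outer membrane, with 1 library for each time. In the second, BMDMs were infected for 48 h with an AAV carrying GFP (AAV-GFP, genotype labelled WT, 2 samples) or Shisa3 (AAV-SHISA3, genotype labelled Shisa3 overexpression, 2 samples). Per the study's methods, both AAV inserts were driven by CAG, a strong promoter that is active in most cell types, and wild-type marrow came from C57BL/6 mice, with mice of both sexes at 6 to 12 weeks of age used across its experiments. The sources used here do not say how many mice gave these samples or whether the 2 samples of a group came from separate mice, so the p-values below measure the spread between these samples, which may be technical.

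Lysosomes are acidic compartments in which macrophages digest what they engulf and what autophagy delivers. The vacuolar ATPase (V-ATPase) pumps protons into them, the cathepsins and glycosidases work at the resulting low pH, and heavily glycosylated membrane proteins such as LAMP1 line the inner face. Many lysosomal genes carry a short promoter sequence, the CLEAR element, which is bound by the related factors TFEB, TFE3 and MITF, and these factors enter the nucleus when mTORC1 at the lysosome surface is inactive.

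The CLEAR element has the letters CACGTG at its core, and its full form reads close to TCACGTGA. Promoter windows of 300 bases, from 250 bases before to 50 bases after the annotated start, were available from RefSeq (build GRCm38.p6) for 33 of the 40 genes. The letters CACGTG, which read the same on both strands, were found in 12 of these 33 windows (36.4%), against 8.09% of 27025 genes with a window. The longer TCACGTGA, which contains the shorter letters and is its own reverse complement as well, was found in 6 of the 33 (18.2%), against 1.12% of all genes. The 6 were Ctsa, Ctsd, Gla, Mcoln1, Atp6v0d1 and Atp6v1a. The other 6 with only the shorter letters were Ctsf, Ctsl, Lgmn, Gaa, Glb1 and Lamp1. A match is a description of the letters and does not show that a factor binds there. The stretches below hold matches from an acid protease, the calcium channel of the lysosome, a glycosidase, a major membrane protein and a pump subunit, given on the strand of the gene with the matching letters in capitals, followed by the same side of Ctsc, the cathepsin that differed most after LPS, whose window holds no CACGTG.
Ctsd, chr7:142387903-142387942, minus strand: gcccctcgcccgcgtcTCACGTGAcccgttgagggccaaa
Mcoln1, chr8:3500434-3500493, plus strand: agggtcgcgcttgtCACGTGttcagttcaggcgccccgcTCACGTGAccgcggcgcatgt
Gla, chrX:134601181-134601250, minus strand: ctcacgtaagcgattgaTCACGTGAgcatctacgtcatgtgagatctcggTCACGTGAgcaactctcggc
Lamp1, chr8:13159086-13159155, plus strand: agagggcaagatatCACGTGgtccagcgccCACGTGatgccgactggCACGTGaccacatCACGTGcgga
Atp6v1a, chr16:44139360-44139409, minus strand: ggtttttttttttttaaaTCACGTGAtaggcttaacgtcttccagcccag
Ctsc, chr7:88277985-88278084, plus strand: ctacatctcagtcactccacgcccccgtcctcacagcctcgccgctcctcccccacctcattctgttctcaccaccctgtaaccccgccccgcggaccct
The stretch of Lamp1 holds 4 copies of CACGTG within 70 bases just before the start. That of Gla holds 2 copies of the longer letters. The Ctsd window has a second CACGTG farther from the start that lies outside the stretch shown.

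The AAV table gives values that add up to between 999778 and 999818 in each sample, and they were read as TPM (transcripts of the gene per 1000000 transcripts), a level per length that can be compared between genes. Its depth is unknown. The LPS table gives reads divided by 1 factor per library, and the recovered reads were 15588502 at 0 h, 7263258 at 2 h and 32659392 at 4 h. The factors leave the libraries with unequal totals, 1.58 times the 0 h total at 2 h and 1.77 times at 4 h, so a gene can be higher in the authors' values and lower as a share of reads. Differences after LPS are log2 fold changes of the authors' values with 1 added, and those from library totals are given beside them where they change a statement. With 1 library per time point there is no replicate check and no p-value for them.

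Markers of the cells were checked first. The 8 macrophage markers added up to between 33639 and 37189 TPM in the 4 AAV samples, with Lyz2 the leading gene. Of the 8, Cd14, the LPS co-receptor, was higher in AAV-SHISA3 (log2 fold change 0.78, adjusted p from limma = 0.0153, and between 0.0585 and 0.145 with any 1 sample left out). The 6 proliferation markers added up to 56.5 and 58.8 TPM in AAV-GFP and to 91.4 and 52.1 TPM in AAV-SHISA3, with replicate 1 of AAV-SHISA3 the highest sample, and the 6 dendritic cell markers to between 3.01 and 4.05 TPM. The 9 neutrophil markers added up to 593 and 564 TPM in AAV-GFP and to 1090 and 679 TPM in AAV-SHISA3. All 7 of them that could be tested were higher in both AAV-SHISA3 samples than in both AAV-GFP samples. Of all genes tested 18.2% were so ordered. Of the 7, 2 (28.6%) passed the test as higher, against 2.23% of all genes. These were Camp (log2 fold change 1.14, adjusted p from limma = 0.0422) and Ngp (1.02, adjusted p from limma = 0.0378). Ly6g and Cxcr2, which were not tested, stayed under 0.3 TPM, and Cxcr2 was lower in both AAV-SHISA3 samples. With 1 sample left out, adjusted p from limma ran from 0.0361 to 0.187 for Camp and from 0.0330 to 0.182 for Ngp. In the LPS libraries 5 of the 9 neutrophil markers (55.6%) were at least 2-fold higher at 2 h and 1 (11.1%) lower, against 20.5% and 24.7% of all genes. By library totals 1 (11.1%) was higher at 2 h, against 13.3% of all genes, and at 4 h 0 were higher under either scaling. The part of these marker genes in the differences below was not tested, and in bulk RNA a change in the number of cells of a type and a change in RNA per cell cannot be told apart. Shisa3 itself was at 7.88 and 10.85 TPM in AAV-GFP and 12.31 and 17.81 TPM in AAV-SHISA3, a log2 fold change of 0.63 that did not pass the threshold (adjusted p from limma = 0.138).

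A few proteases and Psap led the lysosomal genes of AAV-GFP BMDMs. Ctsb, a cysteine protease, had a mean level of 6868 TPM and Ctsd, the main aspartic protease of the lysosome, 5613 TPM, which put them at place 8 and place 10 among all genes of the table. Psap, the precursor of the saposins that present lipids to their enzymes, followed at 4663 TPM. Ctsl (3205 TPM), Ctsz (2985 TPM), Grn (2176 TPM), Lgmn (1912 TPM) and Ctss (1872 TPM) came next, and these 8 genes held 74.5% of the summed TPM of the 40. In total 10 of the genes were over 1000 TPM, the other two being Gpnmb and Lamp1, and 8 were among the 100 highest genes of the table. At the low end, 4 genes were under 10 TPM: Ctsf (8.78 TPM), Ctsk (7.72 TPM), Atp6v0d2 (1.42 TPM) and Ctse (0.305 TPM). Ctsk and Atp6v0d2 are best known from osteoclasts, and Ctse from gastric and lymphoid cells. Ranked by mean level, 13 of the 39 pairs of neighbours overlapped in their AAV-GFP samples.

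**Figure D1:**
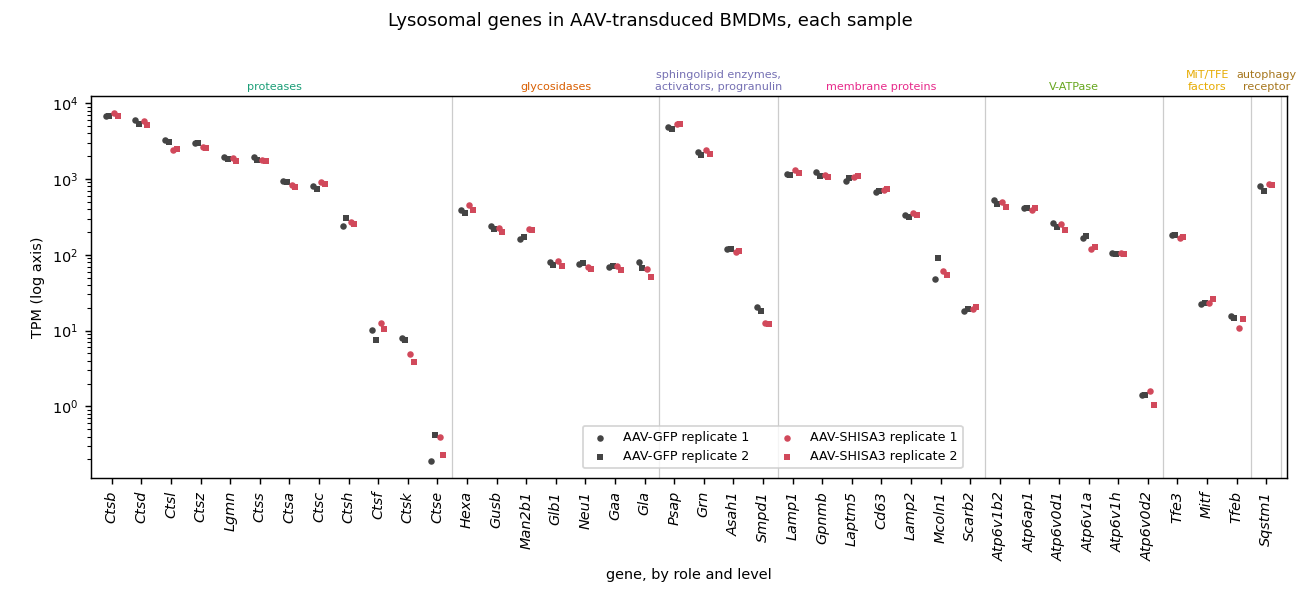
Level in TPM (log axis) of the 40 lysosomal genes in the 2 AAV-GFP samples (grey) and the 2 AAV-SHISA3 samples (red), ordered by role and by mean level. The genes run from 0.305 TPM for Ctse to 6868 TPM for Ctsb in the AAV-GFP means, and for most genes the 4 samples lie close together next to that range.

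The first question was whether lysosomal genes differed between the AAV-SHISA3 and the AAV-GFP BMDMs, which had no LPS. Of the 40 genes, Ctse failed the filter of a mean of 1 TPM and 39 were tested. The mannosidase gene Man2b1 rose, and the sphingomyelinase gene Smpd1, the pump subunit gene Atp6v1a and the cathepsin gene Ctsl fell. The 1 gene that rose is 2.56% of the 39, where 2.23% of all 11218 genes tested rose, and the 3 that fell are 7.69%, where 4.10% of all genes fell. At an unadjusted p from limma under 0.05 there were 3 higher (7.69%) and 8 lower (20.5%), near the 8.21% and 19.8% of all genes. The median log2 fold change of the 39 was -0.07, and that of all genes -0.10 (0.05 and 0.01 with each sample centred on its median). The summed level of the 40 genes was 40252 and 38343 TPM in AAV-GFP and 40052 and 37851 TPM in AAV-SHISA3, between 3.79% and 4.03% of the TPM in each sample (exact two-sided permutation test over samples, p = 0.667, where the smallest possible p is 0.333). The sums of the groups overlapped.

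Man2b1 encodes the lysosomal alpha-mannosidase, which trims mannose from glycoproteins. It was at 163.26 and 169.71 TPM in AAV-GFP and at 218.84 and 213.56 TPM in AAV-SHISA3. The groups did not overlap, and the difference was 0.38 on the log2 scale (SE 0.07, adjusted p from limma = 0.0397).

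Smpd1 encodes acid sphingomyelinase, which splits sphingomyelin into ceramide. It was at 20.27 and 18.13 TPM in AAV-GFP and at 12.43 and 12.22 TPM in AAV-SHISA3. The groups did not overlap, and the log2 fold change was -0.60 (SE 0.11, adjusted p from limma = 0.0378). Atp6v1a encodes the A subunit of the pump, the part that binds and splits ATP. It was at 166.74 and 178.88 TPM in AAV-GFP and at 118.08 and 125.43 TPM in AAV-SHISA3. This is a log2 fold change of -0.50 with no overlap (SE 0.08, adjusted p from limma = 0.0295). Ctsl encodes cathepsin L, a cysteine protease. Its level was 3306.99 and 3102.28 TPM in AAV-GFP and 2410.02 and 2449.26 TPM in AAV-SHISA3, again with no overlap (log2 fold change -0.40, SE 0.07, adjusted p from limma = 0.0382). Of these 4, Atp6v1a and Ctsl have CACGTG in the promoter window.

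These 4 calls rest on a pooled estimate of the spread from 2 samples a group. With any 1 of the 4 samples left out all 4 missed the threshold while keeping their direction, with adjusted p from limma between 0.123 and 0.175 for Man2b1, 0.134 and 0.173 for Smpd1, 0.0922 and 0.165 for Atp6v1a and 0.115 and 0.197 for Ctsl, and 0 of them passed without the intensity trend or without the filter. The median of all genes tested was -0.10, and with each sample centred on its median Man2b1 (adjusted p from limma = 0.0287) and Atp6v1a (0.0460) still passed, whereas Smpd1 (0.0707) and Ctsl (0.138) did not, and the split of all genes turned from 250 higher and 460 lower to 410 higher and 230 lower.

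The other proteases did not pass the threshold in the main fit. Ctsk, a collagen-degrading cathepsin, had the lowest log2 fold change of the 39 genes, with 8.01 and 7.43 TPM in AAV-GFP against 4.89 and 3.87 TPM in AAV-SHISA3 (-0.70, SE 0.15, adjusted p from limma = 0.0558). Both AAV-SHISA3 samples were below both AAV-GFP samples, at levels under 10 TPM where 1 TPM added before the log has weight. Ctsc, also called dipeptidyl peptidase 1, which activates the serine proteases of granulocytes, was at 800.94 and 742.30 TPM against 904.95 and 868.45 TPM (0.20, SE 0.07, adjusted p from limma = 0.152). The abundant Ctsb and Ctsd overlapped between the groups, with log2 fold changes of 0.05 and -0.05.

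The 7 membrane proteins had no gene past the threshold. In 5 of the 7 (Lamp1, Lamp2, Laptm5, Cd63 and Scarb2) the pair of AAV-SHISA3 values lay above the pair from AAV-GFP, where 18.2% of all genes tested were so ordered, and in 0 of the 7 the pair lay below, where 41.2% of all genes were. The log2 fold changes of the 5 were small, from 0.09 for Scarb2, a receptor for beta-glucocerebrosidase, to 0.13 for Laptm5, a protein of hematopoietic lysosomes, with SEs of 0.07 to 0.10. The 19 membrane proteins tested of the further list, described with that list, lay the other way, with 1 (5.26%) above and 12 (63.2%) below. Over all 39 genes, 10 (25.6%) were above and 13 (33.3%) below without overlap. Mcoln1, which encodes the calcium channel TRPML1, had the largest SE of the 39. It was at 48.25 and 91.70 TPM under AAV-GFP and at 60.55 and 53.55 TPM under AAV-SHISA3, so that its log2 fold change of -0.22 (SE 0.28) is smaller than the difference between the AAV-GFP samples.

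Among the pump genes, all 6 log2 fold changes were at or below 0, with a median of -0.09, close to the median of all genes and at 0.03 with each sample centred. Atp6v1b2, the B subunit of the catalytic ring, was at 532.45 and 467.60 TPM in AAV-GFP and 495.85 and 425.61 TPM in AAV-SHISA3. Atp6v1h, a regulatory subunit, was at 104.19 and 103.11 TPM against 104.24 and 102.50 TPM, and Atp6ap1, an accessory protein, at 420.06 and 415.46 TPM against 388.99 and 409.53 TPM. The A subunit thus stood at a log2 fold change of -0.50 where the other 5 pump genes lay between -0.12 and 0.00. The d subunit couples the membrane part to the stalk and comes in 2 forms. The ubiquitous Atp6v0d1 was at 260.60 and 235.94 TPM against 253.46 and 211.23 TPM, and the osteoclast form Atp6v0d2 at 1.43 and 1.42 TPM against 1.57 and 1.05 TPM, so both overlapped between the groups.

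None of the 3 factors that bind the CLEAR element passed the threshold. Tfe3 was the most abundant, at 181.34 and 183.67 TPM in AAV-GFP and 166.73 and 172.30 TPM in AAV-SHISA3 (log2 fold change -0.11, SE 0.07, adjusted p from limma = 0.359). Mitf was at 22.26 and 23.31 TPM against 23.16 and 25.71 TPM (0.10, SE 0.10, adjusted p from limma = 0.572). Tfeb, the best known of them, was at 15.66 and 14.82 TPM against 10.88 and 14.00 TPM (-0.28, SE 0.14, adjusted p from limma = 0.257). For Tfeb and Tfe3 both AAV-SHISA3 samples were below both AAV-GFP samples, and for Mitf the groups overlapped. The 12 genes with CACGTG in the window had a median log2 fold change of -0.09 and the 21 without it 0.07.

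**Figure D2:**
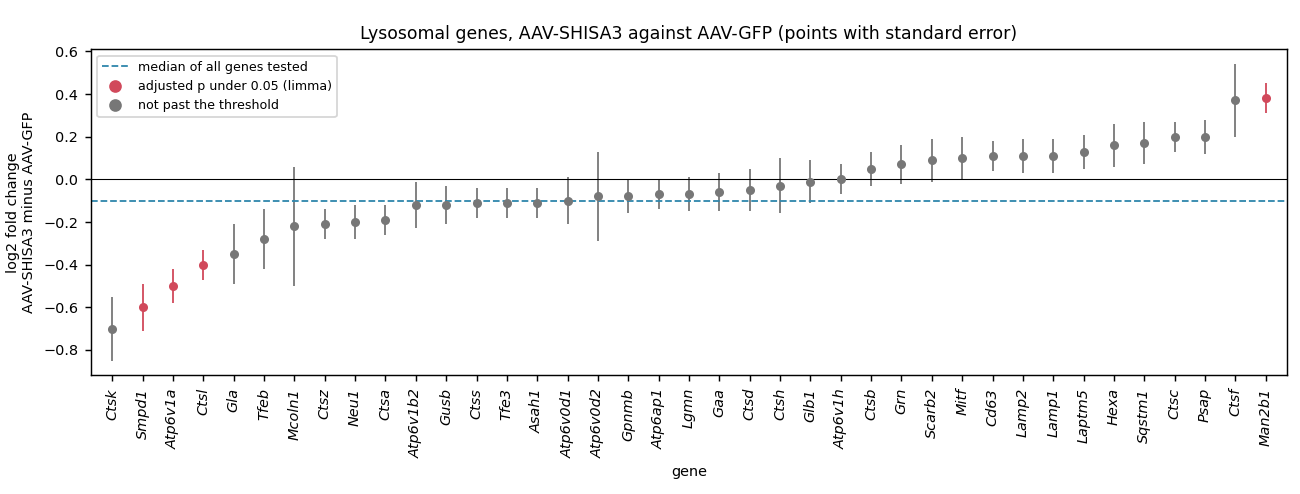
Log2 fold change of AAV-SHISA3 over AAV-GFP (vertical axis, points with standard error) of the 39 lysosomal genes tested, in order of size. The 4 red points passed the threshold (Man2b1 at 0.38, Ctsl at -0.40, Atp6v1a at -0.50 and Smpd1 at -0.60), and the dashed line is the median of all genes at -0.10.

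A further 100 genes of the lysosome and autophagy, written down from general knowledge, were read in the same way, and 94 could be tested. Of these 0 rose and 4 fell (4.26%) by limma, against 2.23% and 4.10% of all genes tested, so the share that fell was near that of all genes. At an unadjusted p under 0.05 there were 4 higher (4.26%) and 28 lower (29.8%), where all genes had 8.21% and 19.8%, and the median log2 fold change was -0.11 against -0.10 for all genes. Flcn and Fnip2 encode folliculin and its partner, which act on the Rag GTPases that hold TFEB at the lysosome. Flcn was at 45.56 and 43.92 TPM in AAV-GFP and 30.48 and 29.91 TPM in AAV-SHISA3 (-0.55, adjusted p from limma = 0.0279), and Fnip2 at 101.91 and 103.93 TPM against 77.23 and 72.84 TPM (-0.45, adjusted p from limma = 0.0338). Nbr1, an autophagy receptor related to Sqstm1, was at 35.26 and 35.33 TPM against 22.34 and 23.65 TPM (-0.60, adjusted p from limma = 0.0272). Mcoln2, a channel related to Mcoln1, was at 60.83 and 64.94 TPM against 40.85 and 45.12 TPM (-0.54, adjusted p from limma = 0.0340). In each of the 4 genes the groups did not overlap, and each missed the threshold with any 1 sample left out, with adjusted p from limma between 0.0922 and 0.175. With each sample centred on its median Nbr1 still passed (adjusted p from limma = 0.0414), whereas Flcn (0.0504), Mcoln2 (0.0502) and Fnip2 (0.0705) did not. Sqstm1 itself was at 817.80 and 692.68 TPM in AAV-GFP and 862.16 and 836.92 TPM in AAV-SHISA3 (0.17, adjusted p from limma = 0.290).

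The second question was how the lysosomal genes moved in the first 4 h of LPS. All 40 genes passed the filter of a mean value of 1, although 4 of them had under 100 reads in at least 1 library, with the least being 27 reads. At 2 h, 3 of the 40 genes (7.50%) were at least 2-fold higher and 2 (5.00%) at least 2-fold lower, whereas of all 17854 genes kept 20.5% were higher and 24.7% lower. At 4 h, 4 (10.0%) were at least 2-fold higher and 2 (5.00%) lower, against 22.2% and 23.6% of all genes. Low genes scatter more, and among the 8728 genes whose mean value reached 100, a limit chosen after seeing the data, the shares were 18.9% higher and 12.7% lower at 2 h and 23.6% higher and 15.7% lower at 4 h. In the authors' values the log2 fold changes of 31 of the 40 genes at 2 h and 27 at 4 h lay within 1.5-fold of 0 h. This count was not made for all genes or by library totals.

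The direction of the whole set depended on the scaling. In the authors' values the median log2 fold change of the 40 was 0.14 at 2 h and -0.09 at 4 h, where that of all genes was -0.05 and -0.04. From library totals the medians were -0.52 and -0.92, where those of all genes were -0.71 and -0.83. With reads scaled by TMM (edgeR) the medians were 0.08 and -0.14, and those of all genes -0.12 and -0.09, close to the authors' values. As a share of reads the 40 genes took 5.97% in the 0 h library (5.95 to 5.98, 95% Wilson interval), 4.53% in the 2 h library (4.52 to 4.55) and 3.64% in the 4 h library (3.64 to 3.65), while their summed values under the authors' scaling were 598276, 718607 and 646505. The 8 macrophage markers took 3.27%, 2.29% and 1.85% of reads at the same times, and the part of this in the lysosomal share was not tested. At least 2-fold higher by library totals were 2 genes (5.00%) at 2 h and 1 (2.50%) at 4 h, where 13.3% and 12.8% of all genes were. At least 2-fold lower by library totals were 6 (15.0%) and 16 of the 40, where 40.6% and 44.5% of all genes were. By the authors' values 12 genes were highest at 0 h, 16 at 2 h and 12 at 4 h, and by library totals 33, 2 and 5. These counts were not made for all genes, whose own medians by library totals were negative at both times. The intervals cover counting error only.

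Ctsc had the largest difference of the 40 genes. Its value was 4595 at 0 h, 16118 at 2 h and 53521 at 4 h, on 7143, 7381 and 98490 reads. This was 11.6-fold higher at 4 h than at 0 h, place 576 among the 17854 genes, with log2 fold changes of 1.81 and 3.54, and it was higher at both times by library totals too (1.15 and 2.72). Its share of reads went from 458 RPM (reads per 1000000 reads, Wilson interval 448 to 469) at the start to 3016 RPM (2997 to 3035) in the 4 h library. The activator of granule proteases thus left the range of the other cathepsins, 10 of the 12 proteases lying within 1.5-fold of 0 h at 4 h.

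Ctsz, a carboxypeptidase, was the other protease past 2-fold, at 8550, 15423 and 18208 (log2 fold change 0.85 and 1.09). By library totals its log2 fold changes were only 0.19 and 0.27. In the authors' values the abundant cathepsins were within 1.5-fold of 0 h, with Ctsb at 96769, 112830 and 113520, and with Ctsd at 69545, 74760 and 54693. By library totals they were lower at 4 h, Ctsb by a log2 fold change of -0.59 and Ctsd by one of -1.17. Ctsl, which was lower in AAV-SHISA3, was at 11886, 13475 and 10656 (0.18 and -0.16). The median of the 12 proteases was 0.17 at 2 h and -0.10 at 4 h (-0.49 and -0.92 by library totals). By library totals every one of these genes except Ctsc and Ctsz was below its 0 h level at both times.

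The glycosidases and the sphingolipid genes were on the lower side at 4 h. Of the 7 glycosidases, 6 had a negative log2 fold change at 4 h, with a median of -0.33 and 0 of the 7 past 2-fold in the authors' values. By library totals the median was -1.15 and 5 of the 7 (71.4%) were at least 2-fold lower, where 44.5% of all genes were, and with the libraries centred on their medians the median of the 7 was 0.04 and 0 were 2-fold lower. Neu1, the sialidase, was the lowest of them at 1296, 1055 and 693 (-0.30 and -0.90), followed by Gusb, the beta-glucuronidase, at 4998, 4258 and 3308 (-0.23 and -0.59). Man2b1, the gene that was higher in AAV-SHISA3, was at 11989, 14622 and 10504 (0.29 and -0.19). Only Gla, the alpha-galactosidase, was higher at 4 h (0.20), and lower by library totals (-0.63). Under both scalings 6 of the 7 lay below the median of all genes at 4 h, with Gla the exception.

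In the sphingolipid group, Asah1, the acid ceramidase, was at 5313, 3177 and 3462 (-0.74 and -0.62). Smpd1 was at 424, 319 and 260 (-0.41 and -0.70), on 659, 146 and 479 reads. These enzymes of successive steps were both lower at both times, under both scalings. Psap was at 125312, 155639 and 106509. Grn, which encodes progranulin, a secreted and lysosomal glycoprotein, was at 23097, 30017 and 31250, higher in the authors' values (0.38 and 0.44) and lower by library totals (-0.28 and -0.39).

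Among the membrane proteins Lamp2 stood apart. Lamp2 encodes a membrane glycoprotein of which 1 form takes part in chaperone-mediated autophagy. Its value was 6706 at 0 h, 3330 at 2 h and 12971 at 4 h, on 10425, 1525 and 23869 reads. It was lower at 2 h and higher at 4 h, with log2 fold changes of -1.01 and 0.95, and from 2 h to 4 h it went from 3330 to 12971, also higher by library totals (log2 fold change 1.80). By library totals it was -1.67 at 2 h and 0.13 at 4 h. Lamp1, the most similar protein, was at 23826, 25106 and 24156 (0.08 and 0.02, and -0.59 and -0.80 by library totals). Gpnmb, a glycoprotein of lipid-laden macrophages, was at 85074, 84685 and 73917, and Mcoln1 at 513, 448 and 351 (-0.20 and -0.55).

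The pump genes went different ways. The cytosolic subunits Atp6v1h, at 680, 1090 and 1587 (0.68 and 1.22), and Atp6v1b2, at 3514, 4594 and 7003 (0.39 and 0.99), were higher in the authors' values at both times. By library totals Atp6v1h was at 0.02 and 0.40 and Atp6v1b2 at -0.27 and 0.17. Atp6v1a, which forms the catalytic ring together with the B subunit, was lower at 7211, 6346 and 5641 (-0.18 and -0.35). Atp6v0d2 was lower as well, at 302, 183 and 148 (-0.71 and -1.02, and -1.37 and -1.84 by library totals) on 469, 84 and 273 reads, while its counterpart Atp6v0d1 was at 1759, 1987 and 2105, higher in the authors' values (0.18 and 0.26) and lower by library totals (-0.49 and -0.56). Atp6ap1 was at 4032, 3835 and 4069. Of the 12 further pump genes 10 had a positive log2 fold change at 4 h, with a median of 0.54, and 10 of the 12 were above the median of all genes. By library totals the median of these 12 genes was -0.28, where that of all genes was -0.83.

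The 3 factors separated after LPS. Tfeb was at 643 at 0 h, 170 at 2 h and 97.8 at 4 h, on 1000, 78 and 180 reads. It was 3.76-fold lower at 2 h and 6.52-fold lower at 4 h (log2 fold change -1.91 and -2.70), the lowest of the 40 genes at both times and place 716 from the bottom among all genes at 4 h. Its share of reads went from 64.1 RPM (Wilson interval 60.3 to 68.3) over 10.7 RPM (8.61 to 13.4) to 5.51 RPM (4.76 to 6.38). Mitf went the other way, at 1297, 3708 and 3457 (1.51 and 1.41, and 0.85 and 0.59 by library totals). Tfe3 was at 1264, 1616 and 1783 (0.35 and 0.50), and lower by library totals (-0.31 and -0.33). Tfeb was thus lower, and Mitf higher, at both times under either scaling, and the direction of Tfe3 turned with it.

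The 12 genes with CACGTG in the window had a median log2 fold change of 0.14 at 2 h and -0.14 at 4 h, and the 21 without the letters 0.13 and 0.01. Within the 12 the values at 4 h ran from -0.55 for Mcoln1 to 0.26 for Atp6v0d1. By library totals all 12 were lower at 4 h, from -1.37 for Mcoln1 to -0.56 for Atp6v0d1, with a median of -0.96 and 5 of them at least 2-fold lower, and the 21 without the letters had a median of -0.81 and 8 at least 2-fold lower, where 44.5% of all genes were. These medians are given without a test.

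Sqstm1, the receptor also called p62 that links ubiquitin-tagged cargo to the autophagosome, had a peak at 2 h. It was at 6979, 39655 and 12174, on 10850, 18160 and 22403 reads, 5.68-fold higher at 2 h (log2 fold change 2.51, and 1.84 by library totals). At 4 h it was 0.80 above 0 h in the authors' values and -0.02 by library totals. Its share of reads went from 696 RPM (Wilson interval 683 to 709) over 2500 RPM (2464 to 2537) to 686 RPM (677 to 695). The 2 h peak held under both scalings, and what remained at 4 h did not.

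**Figure D3:**
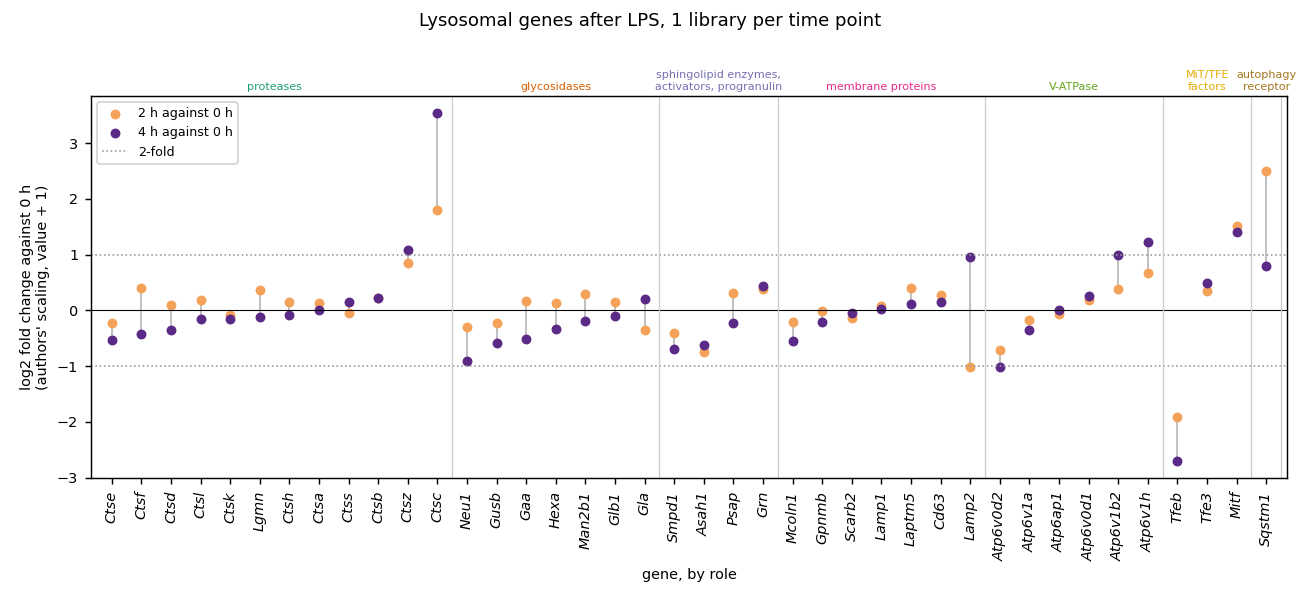
Log2 fold change against 0 h (vertical axis, authors' values with 1 added) of the 40 lysosomal genes after 2 h (orange) and 4 h (purple) of LPS, by role, with dotted lines at 2-fold and 1 library per time point. Most genes lie between the dotted lines, and Ctsc (3.54 at 4 h), Sqstm1 (2.51 at 2 h) and Tfeb (-2.70 at 4 h) reach farthest.

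**Figure D4:**
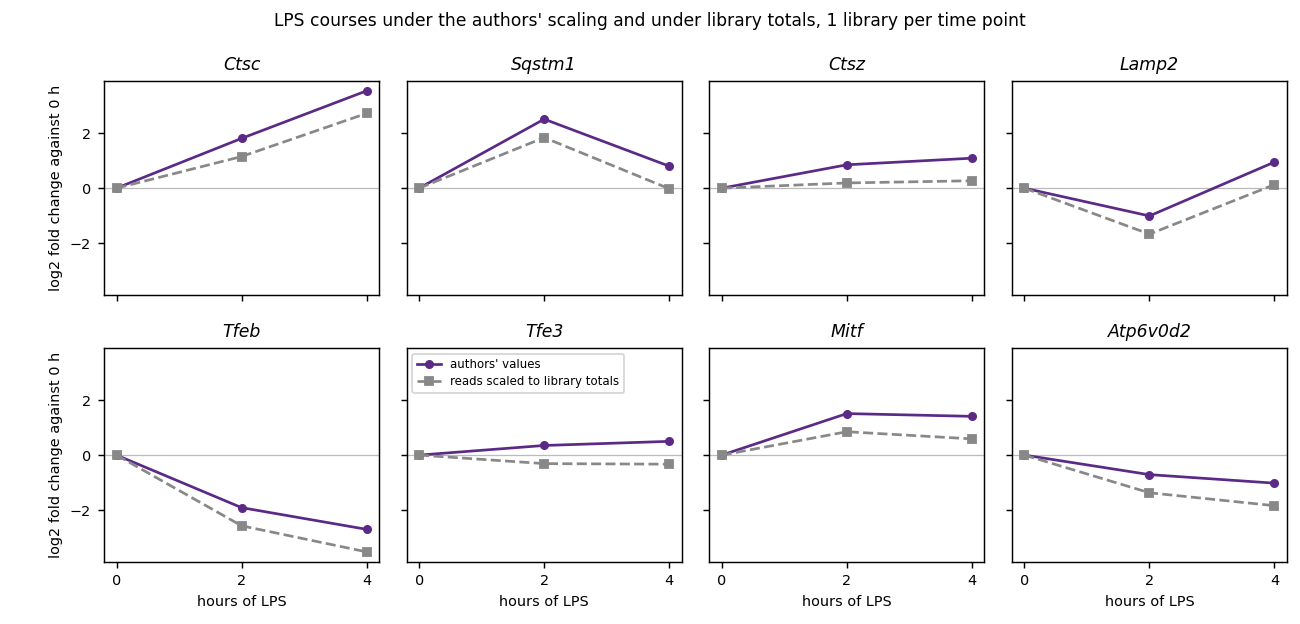
Log2 fold change against 0 h over hours of LPS for 8 lysosomal genes, from the authors' values (purple circles) and from reads scaled to library totals (grey squares), with 1 library per time point. The grey line lies below the purple line at 2 h and 4 h in every panel, and Tfe3 lies above 0 in the one and below 0 in the other.

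The further genes were also read after LPS, without a test. Of the 97 that passed the filter, 10 (10.3%) were at least 2-fold higher and 13 (13.4%) lower at 2 h, against 20.5% and 24.7% of all genes. At 4 h 12 (12.4%) were higher and 22 (22.7%) lower, against 22.2% and 23.6% of all genes, so the share of lower genes at 4 h was near that of all genes. The largest upward difference was that of Cst7, cystatin F, an inhibitor of cathepsins in immune cells and of Ctsc among them, at 12.2, 120 and 397 (log2 fold change 4.91 at 4 h) on 19, 55 and 731 reads. The autophagy receptors Optn, at 178, 1214 and 1647 (3.20), and Tax1bp1, at 2068, 7254 and 19016 (3.20), were higher as well. Mcoln2 was at 985, 4881 and 6262 (2.67) and Cd164, a sialomucin, at 733, 902 and 2870 (1.97). These 5 genes were higher at 4 h by library totals too, from 1.15 for Cd164 to 4.12 for Cst7.

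The 5 genes lowest at 4 h belong to different steps. Sgsh, the sulfamidase of heparan sulfate breakdown, was at 1116, 454 and 79.9 (-3.79), and Pla2g15, a lysosomal phospholipase, at 1709, 432 and 189 (-3.17). Slc36a1, which carries amino acids across the lysosomal membrane, was at 930, 330 and 96.2 (-3.26). Rragd, a Rag GTPase of mTORC1 recruitment, was at 124, 67.7 and 13.6 (-3.10) on 193, 31 and 25 reads, and Ulk1, the kinase that starts autophagy, at 681, 319 and 95.6 (-2.82). Of the 29 further hydrolases and cofactors 6 (20.7%) were at least 2-fold lower at 4 h, where 23.6% of all genes were, and 0 were higher, where 22.2% of all genes were. By library totals 15 of the 29 (51.7%) were at least 2-fold lower, where 44.5% of all genes were.

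**Figure D5:**
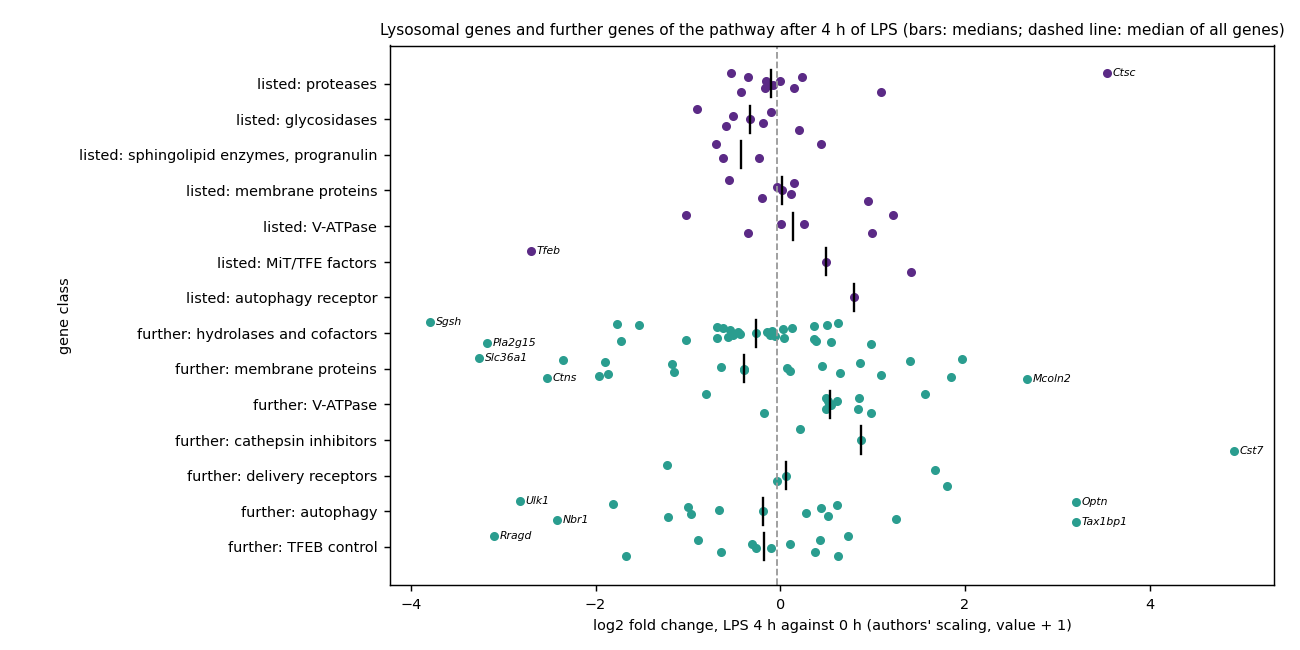
Log2 fold change at 4 h of LPS (horizontal axis, authors' values with 1 added) of each of the 40 lysosomal genes (purple) and of 97 further genes (green) by class, with black bars for class medians and a dashed line for the median of all genes at -0.04. Genes beyond 2.4 in either direction are named, and the points of the 40 sit closer to 0 than those of the further membrane and autophagy genes.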

How the data were processed

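Each of the 7 samples was placed by its label. The LPS table as deposited by the authors holds a signal, the read count of a gene divided by a library factor. This was inferred from the values, of which 100% were whole multiples of 1 step within 0.01. The authors' AAV values were read as TPM because of their sums. The submitters' processing notes name the build mm9. The aligner, the annotation and the tool behind the values are not given in the sources used here. The AAV groups were compared by limma 3.58.1 (R 4.3.3, trended, two-sided) on log2(TPM + 1), keeping genes that averaged 1 TPM or more, and p-values were adjusted by Benjamini-Hochberg over all of these with a threshold of 0.05. For LPS, log2(value + 1) was used on genes averaging 1 or more. TMM factors came from edgeR 4.0.16. The limma step was tested on simulated data. Figures were drawn with matplotlib 3.10.9, and other steps used Python 3.11.15 with scipy 1.17.1, pandas 2.3.3 and numpy 2.4.6.

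The 40 genes and all lists were chosen with earlier results of these data known. Values per sample are given for the genes called in AAV, the 8 largest LPS changes at 4 h, Tfeb, Tfe3, Mitf and the pump genes, and, of the further genes, for those called in AAV and the 5 largest changes each way at 4 h of LPS. Other genes of the 40, and the promoters shown, are examples picked after their values were seen. Of the further list, 1 gene was not in the AAV table. Alternatives were limma without the trend, centring, pseudocounts of 0.1 and 5, other filters, the replicate number as a block, each sample left out, library totals, TMM and a 1.5-fold limit.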

Additional observations from a re-analysis of the deposited data

How the results depend on the processing

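Of all genes in the AAV comparison, 250 were called higher and 460 lower. Without limma's trend these counts were 1 and 4, without a filter 0 and 0, with samples centred on their medians 410 and 230, and with any 1 sample left out from 0 to 32 and from 0 to 10. For the 40 lysosomal genes (1 higher, 3 lower) they were 0 and 0 without the trend, without a filter and with any 1 sample left out (range 0 to 0), and centring left 1 lower. For the further genes (0 higher, 4 lower) centring gave 1 and 1, at least 1 TPM in every sample 1 and 7, and no trend, no filter or any left-out sample 0 lower. Ctsk passed with at least 1 TPM in every sample (adjusted p from limma = 0.0412). Same-numbered AAV samples share only a number (correlation of their deviations across genes 0.188). The replicate block gave 424 higher and 851 lower among all genes, 1 and 5 among the lysosomal genes, where Ctsk (adjusted p from limma = 0.0366) and Gla (0.0488) were added, and 1 and 11 among the further genes.

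After LPS, library totals left 1 lysosomal gene higher and 16 lower at 4 h and 6 lower at 2 h, with medians of -0.519 at 2 h and -0.915 at 4 h. Centring on library medians gave 7 higher and 1 lower at 4 h and 1 lower at 2 h, with medians of 0.456 and 0.280. Reads scaled by TMM gave 3 higher and 2 lower at 2 h and 4 higher and 2 lower at 4 h. These were the counts of the authors' values, and the TMM medians were 0.076 and -0.139. A 1.5-fold limit gave 5 higher and 4 lower at 2 h and 7 higher and 6 lower at 4 h, and a pseudocount of 5 left 1 lower at 4 h. For the further genes, library totals gave 5 higher and 30 lower at 2 h and 6 higher and 43 lower at 4 h, a 1.5-fold limit 17 higher and 22 lower at 2 h and 24 higher at 4 h, and centring 20 higher at 4 h. The cause was not tested.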

Other observations

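Markers of osteoclasts were read because Ctsk and Atp6v0d2 are best known from these cells. The 9 osteoclast markers added up to 135 and 147 TPM in AAV-GFP and to 119 and 122 TPM in AAV-SHISA3, most of it Acp5, the tartrate-resistant phosphatase of lysosomes (93.42 and 86.51 TPM against 96.92 and 94.61 TPM). Mmp9, a matrix protease and the next highest of them, was at 27.41 and 44.20 TPM against 14.58 and 18.95 TPM, which did not pass the threshold (-1.02 on the log2 scale, adjusted p from limma = 0.0646), while Calcr, Dcstamp and Ocstamp stayed under 0.3 TPM. Nfatc1, the transcription factor that leads osteoclast differentiation, was at 10.79 and 12.34 TPM in AAV-GFP and 5.60 and 6.37 TPM in AAV-SHISA3 (log2 fold change -0.85, adjusted p from limma = 0.0301), and with any 1 sample left out its adjusted p from limma was between 0.0933 and 0.166. After LPS, Nfatc1 was at 732, 288 and 120 (-2.60 at 4 h) and Acp5 at 48.9, 437 and 473 (3.25 at 4 h). Of the 8 osteoclast markers kept after LPS, 4 (50.0%) were at least 2-fold higher at 4 h, where 22.2% of all genes were. Only Nfatc1 (12.5%) was at least 2-fold lower, where 23.6% of all genes were. By library totals 4 (50.0%) were at least 2-fold higher and 3 (37.5%) lower, where 12.8% and 44.5% of all genes were.

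The genes called in AAV-SHISA3 can be set beside their own LPS values. At 4 h of LPS, when 22 of the 40 lysosomal genes had a negative log2 fold change, the 3 that fell in AAV-SHISA3 were at -0.70 (Smpd1), -0.35 (Atp6v1a) and -0.16 (Ctsl). By library totals they were at -1.52, -1.18 and -0.98, and with the libraries centred on their medians at -0.33, 0.02 and 0.21, so the direction of Atp6v1a and Ctsl turned with the scaling. Ctsl at 2 h was higher under the authors' scaling (0.18) and lower by library totals (-0.48). Man2b1, which rose in AAV-SHISA3, lay at -0.19 at 4 h (-1.01 by library totals and 0.18 when centred). Nbr1 and Flcn, which fell in AAV-SHISA3, were at -2.42 and -1.67 at 4 h, Fnip2 at -1.46 at 2 h and -0.26 at 4 h, and Mcoln2, which fell in AAV-SHISA3, at 2.67. Over the 39 lysosomal genes tested the log2 fold changes of AAV-SHISA3 and of LPS at 4 h had a Pearson correlation of 0.31 and a Spearman correlation of 0.31 across genes, which are not independent replicates.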
